A study of Mus musculus with 6 samples.

Results

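Genomic imprinting is the expression of a gene from only the maternal or only the paternal copy, set by DNA methylation laid down in the egg or the sperm. Imprinted genes lie in clusters, each under a shared control region, and many of them set the growth of the embryo and placenta. Several are high in fetal mesenchyme and fall after birth. The members described here are 10 such genes, taken by symbol from a fixed list: the noncoding RNAs *H19*, *Meg3* and *Rian*, the membrane-anchored ligand *Dlk1*, the zinc-finger proteins *Peg3*, *Plagl1* and *Zim1*, the MAGE-family protein *Ndn*, the signalling adaptor *Grb10* and the hydrolase-fold protein *Mest*. All 10 were found among the 20327 gene symbols counted. In most tissues *H19*, *Meg3*, *Rian*, *Zim1* and *Grb10* are maternally expressed and *Dlk1*, *Peg3*, *Mest*, *Plagl1* and *Ndn* paternally expressed. The allele of origin was not measured here.

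The cells came from the colon of C57BL/6 *Il11-Egfp* mice, a single selected transgenic line in which a bacterial artificial chromosome carries *Egfp* inside *Il11*. All mice were 9 to 15 weeks old and drank 1.5% dextran sulfate sodium (DSS), which injures the colon epithelium, for 5 days before sorting on day 7. DAPI-negative cells lacking CD45, CD31, EpCAM and Ter119 were split into an EGFP-Positive and an EGFP-Negative group, with 3 libraries in each. The EGFP-Negative group is whatever else passed that gate, and untreated mice were not used here. Libraries were made by 5′Tag-seq, which counts tags from the 5′ side of polyA RNA. The EGFP-Negative libraries held 1057170, 1078179 and 1169817 tags and the EGFP-Positive libraries 1046538, 1022851 and 1049048. At that depth 3 tags, taken as the floor in a library, correspond to 2.56 to 2.93 CPM (tags per 1e+06 tags), and floors and counting intervals cover counting error only. *Il11* itself, whose reporter defined the sort, had 28, 51 and 89 tags in EGFP-Negative replicates 1, 2 and 3 and 1357, 732 and 2658 in EGFP-Positive replicates 1, 2 and 3.

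A gene was tested if 3 or more of the 6 libraries held 10 or more of its tags. It counts as called where the adjusted p is below 0.05 and the levels differ more than 2-fold. Below, tags are given for replicates 1, 2 and 3 in that order, levels are CPM normalized by the trimmed mean of M-values (TMM), and log2 fold changes are EGFP-Positive over EGFP-Negative. *Peg3*, *Plagl1* and *Ndn* fell in EGFP-Positive cells, so that 3 of the 10 members were called lower, against 6.37% of the 9334 genes tested. The members, and the gene lists below, were chosen with earlier results of these data known. The shares over all genes given beside them are therefore no test of enrichment. No member was called higher, a call made for 3.44% of tested genes. That count of 0 came from edgeR's quasi-likelihood test, and it was also 0 at an unadjusted p under 0.05 and with DESeq2. The filter left 6 members to test, each with at least 10 tags in libraries of both groups, and their median log2 fold change was -1.03 beside -0.01 for all tested genes. The other 4, *H19*, *Dlk1*, *Zim1* and *Mest*, were too low to test. In 8 of the 10 members every EGFP-Positive library lay below every EGFP-Negative library, a pattern shown by 11.3% of the 20327 symbols. It held for all 6 tested members, against 1561 of the 9334 tested genes. In bulk RNA, fewer cells of a type and less RNA per cell cannot be told apart.

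**Figure D1:**
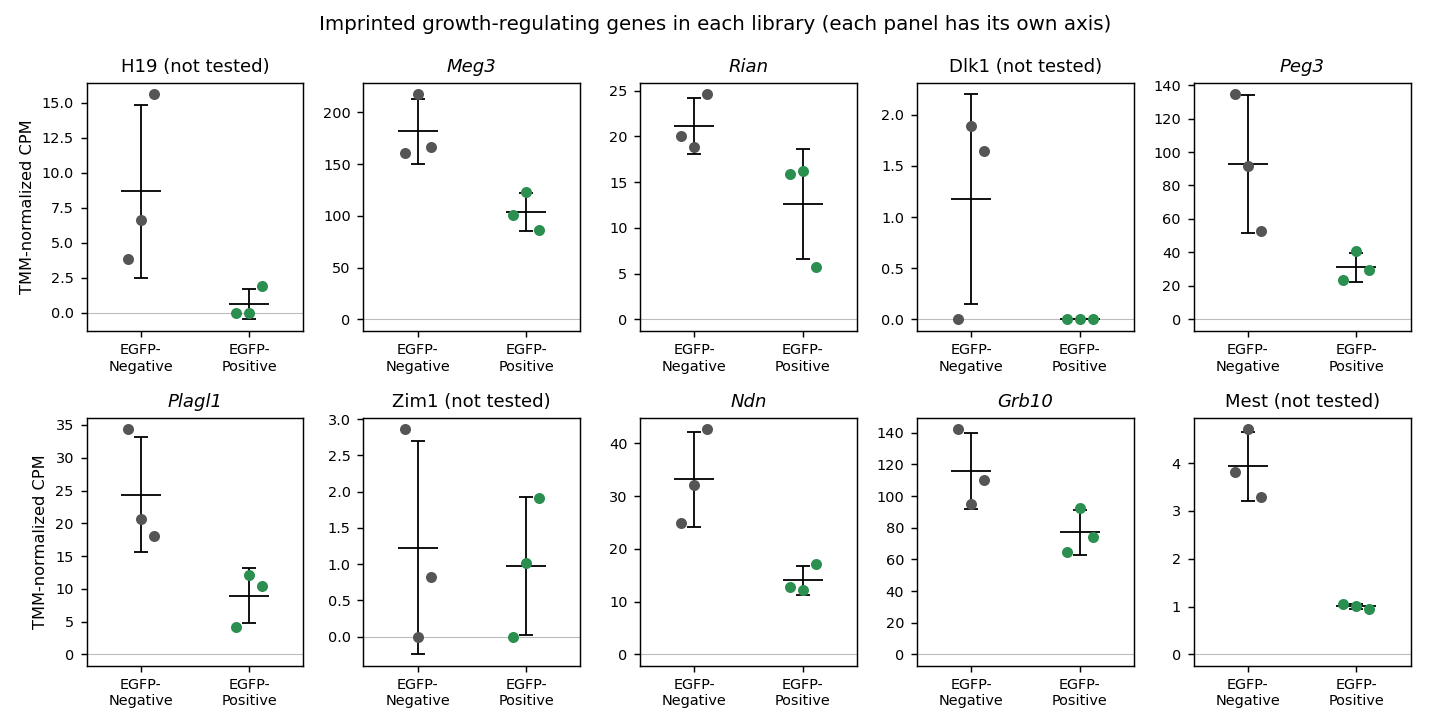
TMM-normalized CPM of each of the 10 members, with 1 point per library, 3 EGFP-Negative (grey) and 3 EGFP-Positive (green), and bars for the mean ± SD. The groups overlap in the panels of *Dlk1* and *Zim1* and lie apart in the other 8, where EGFP-Positive is the lower group.

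The paternally expressed *Peg3* encodes a large zinc-finger protein of the Peg3 domain. It had 141, 97 and 64 tags in EGFP-Negative libraries and 22, 40 and 31 in EGFP-Positive libraries. The groups did not overlap, and EGFP-Negative replicate 1 was the highest of the 6 libraries. Its level was 92.9 ± 41.1 CPM in EGFP-Negative and 31.2 ± 8.76 CPM in EGFP-Positive cells (SD, n = 3). The log2 fold change was -1.56 (SE 0.298, 95% interval -2.19 to -0.93), and the adjusted p was 0.0011 (quasi-likelihood test of edgeR, Benjamini-Hochberg adjustment). Its maternally expressed neighbour *Zim1*, 7.44 kb away, had 3, 0 and 1 tags in EGFP-Negative and 0, 1 and 2 in EGFP-Positive libraries. No library rose above the floor, so a difference in *Zim1* was not detectable at this depth and no fold change is given.

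*Plagl1* encodes a zinc-finger transcription factor that restrains proliferation and binds other imprinted loci. It had 36, 22 and 22 tags in EGFP-Negative libraries and 4, 12 and 11 in EGFP-Positive libraries. EGFP-Negative replicate 1 was again the highest library and EGFP-Positive replicate 1 the lowest. The level was 24.4 ± 8.75 CPM in EGFP-Negative and 8.97 ± 4.18 CPM in EGFP-Positive cells (SD, n = 3). The log2 fold change was -1.41 (SE 0.397, 95% interval -2.24 to -0.58; edgeR adjusted p 0.0199). Those same libraries carried the call. Without EGFP-Negative replicate 1 the log2 fold change was -1.11 with an edgeR adjusted p of 0.131, and without EGFP-Positive replicate 1 it was -1.08 with 0.0933. Across the alternatives its adjusted p ran from 0.00394 to 0.132.

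*Ndn* encodes necdin, a MAGE-family protein that holds cells out of the cell cycle, best known from postmitotic neurons. It had 26, 34 and 52 tags in EGFP-Negative libraries and 12, 12 and 18 in EGFP-Positive libraries. The groups did not overlap, and EGFP-Negative replicate 3 was the highest. The level was 33.2 ± 8.99 CPM against 14.0 ± 2.73 CPM (SD, n = 3). The log2 fold change was -1.24 (SE 0.311, 95% interval -1.89 to -0.59; edgeR adjusted p 0.00951). Without EGFP-Negative replicate 3 it was -1.03 with an edgeR adjusted p of 0.0578, which ends the call, and across the alternatives the adjusted p ran from 0.00133 to 0.0578.

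Among the noncoding RNAs, *Meg3* is a maternally expressed RNA of the Dlk1-Meg3 domain. It had 168, 231 and 203 tags in EGFP-Negative libraries and 95, 121 and 91 in EGFP-Positive libraries. No EGFP-Positive library reached the lowest EGFP-Negative one. The level was 182 ± 31.4 CPM against 103 ± 18.2 CPM (SD, n = 3). The log2 fold change was -0.81 (SE 0.186, 95% interval -1.20 to -0.42; edgeR adjusted p 0.00477), which passed the adjusted p but not the fold change of 2. By the adjusted p alone 4 of the 10 members were lower, against 8.7% of tested genes. In GENCODE M21, 18% of the 50-nt windows in the first 300 nt of *Meg3* transcripts also occur in other annotated transcripts (*Gm27000* and the *Mir1906* copies), so some of its tags could belong to these.

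*Rian* lies 32.2 kb from *Meg3* on the same strand and is the host of many small nucleolar RNAs. It had 21, 20 and 30 tags in EGFP-Negative libraries and 15, 16 and 6 in EGFP-Positive libraries. The groups did not overlap, although EGFP-Positive replicates 1 and 2 lay close to EGFP-Negative replicate 2. The log2 fold change was -0.76 (SE 0.369, 95% interval -1.54 to 0.01; edgeR adjusted p 0.195), so *Rian* was not called. Without EGFP-Positive replicate 3, the lowest library, it was -0.40 with an edgeR adjusted p of 0.535. Within a library, *Rian* tags per *Meg3* tag averaged 0.120 ± 0.0309 in EGFP-Negative and 0.119 ± 0.0475 in EGFP-Positive cells (SD, n = 3; two-sided exact permutation p = 1). *Dlk1*, the paternally expressed ligand of this domain and an inhibitor of adipocyte differentiation, had 0, 2 and 2 tags in EGFP-Negative libraries and 0 in each EGFP-Positive library. Every library was under the floor, and no fold change is given.

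*H19* is a maternally expressed RNA that shares its control region with *Igf2* and is abundant in fetal tissues. It had 4, 7 and 19 tags in EGFP-Negative libraries and 0, 0 and 2 in EGFP-Positive libraries. EGFP-Negative replicate 3 held 19 of the 30 EGFP-Negative tags, and it was the only library to reach 10. The summed tags, 30 against 2, gave an EGFP-Negative over EGFP-Positive ratio of 13.4 after scaling, with an exact 95% counting interval of 3.41 to 116 that leaves out the spread between mice. *H19* was too low to test.

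*Grb10* encodes an adaptor that binds the insulin and IGF receptors and dampens their signal. It had 149, 101 and 134 tags in EGFP-Negative libraries and 61, 91 and 78 in EGFP-Positive libraries. The groups lay apart by a small margin, between EGFP-Negative replicate 2 at 95.2 CPM and EGFP-Positive replicate 2 at 92.4 CPM. The log2 fold change was -0.58 (SE 0.197; edgeR adjusted p 0.0532), and *Grb10* was not called. Blocking on the replicate number gave an edgeR adjusted p of 0.0171, still with a fold change under 2, and across the alternatives this value ran from 0.0171 to 0.245. *Mest*, a paternally expressed gene of mesoderm, had 4, 5 and 4 tags in EGFP-Negative libraries and 1 in each EGFP-Positive library. The summed tags, 13 against 3, gave a ratio of 3.88 (exact 95% counting interval 1.07 to 21.2), and *Mest* was too low to test.

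A wider list of 59 other imprinted genes gave 46 with a symbol in the files, the other 13 not being analysed here. Of the 26 that could be tested, 5 were called lower, against 6.37% of all genes tested. They were *Ppp1r9a*, *Igf2*, *Peg13*, *Cdkn1c* and *Cd81*. None was called higher by edgeR or by DESeq2. At an unadjusted p under 0.05 (edgeR), 7 were lower and 2 higher. The 2 higher genes, *H13* at 0.64 (SE 0.173; edgeR adjusted p 0.0159) and *Dcn* at 0.67 (SE 0.22; edgeR adjusted p 0.0462), passed the adjusted p but not the fold change of 2. On the lower side the same held for *Sgce*, at -0.58 (SE 0.19; edgeR adjusted p 0.047). The median log2 fold change of the 26 was -0.19. *Ppp1r9a*, which encodes an actin-binding scaffold, had 18, 15 and 42 tags in EGFP-Negative libraries and 6, 2 and 3 in EGFP-Positive libraries. It passed the filter only through EGFP-Negative libraries, which set its direction though not its size, and it dropped under the filter when any of these was left out. Its log2 fold change was -2.55 (SE 0.504; edgeR adjusted p 0.00148).

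*Igf2*, the fetal growth factor next to *H19*, had 28, 26 and 19 tags in EGFP-Negative libraries and 2, 6 and 11 in EGFP-Positive libraries. Its log2 fold change was -1.78 (SE 0.44; edgeR adjusted p 0.00853), and EGFP-Positive replicate 3 was the highest library of its group for both *Igf2* and *H19*. Without that library the log2 fold change of *Igf2* was -2.38 (edgeR adjusted p 0.003), and without EGFP-Positive replicate 1 it was -1.38 (edgeR adjusted p 0.0422). In GENCODE M21, 28.7% of the 5′ windows of *Igf2* are shared with the read-through model *Gm49394*. *H19* tags per *Igf2* tag were 0.143, 0.269 and 1 in EGFP-Negative libraries and 0, 0 and 0.182 in EGFP-Positive libraries (two-sided exact permutation p = 0.3). This was 1 of 4 ratios computed, together with *Rian* to *Meg3*, *Dlk1* to *Meg3* (exact p = 0.4) and *Zim1* to *Peg3* (exact p = 0.3), and its adjusted value over them was 0.533. These exact tests did not pair libraries by replicate number. With 3 libraries against 3 no exact p can be under 0.1.

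*Cdkn1c*, a cyclin-dependent kinase inhibitor of the neighbouring Kcnq1 domain, had 60, 71 and 44 tags in EGFP-Negative libraries and 21, 17 and 31 in EGFP-Positive libraries. Its log2 fold change was -1.20 (SE 0.283; edgeR adjusted p 0.00614). The call was lost without EGFP-Negative replicate 2, at -1.02 and an edgeR adjusted p of 0.0531, within a range of 0.000279 to 0.0539 over the alternatives. *Cd81*, a tetraspanin of the same domain, had 111, 118 and 191 tags in EGFP-Negative libraries and 40, 38 and 91 in EGFP-Positive libraries. Its log2 fold change was -1.15 (SE 0.256; edgeR adjusted p 0.00387), and the fold change came under 2 without EGFP-Negative replicate 3 (-0.96), EGFP-Positive replicate 1 (-0.98) or EGFP-Positive replicate 2 (-0.94). *Peg13*, a noncoding RNA within *Trappc9* and on its strand, had 26, 26 and 33 tags in EGFP-Negative libraries and 6, 10 and 12 in EGFP-Positive libraries (log2 fold change -1.43, SE 0.333; edgeR adjusted p 0.00548). *Trappc9* itself was not called, at 0.36 (SE 0.403).

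**Figure D2:**
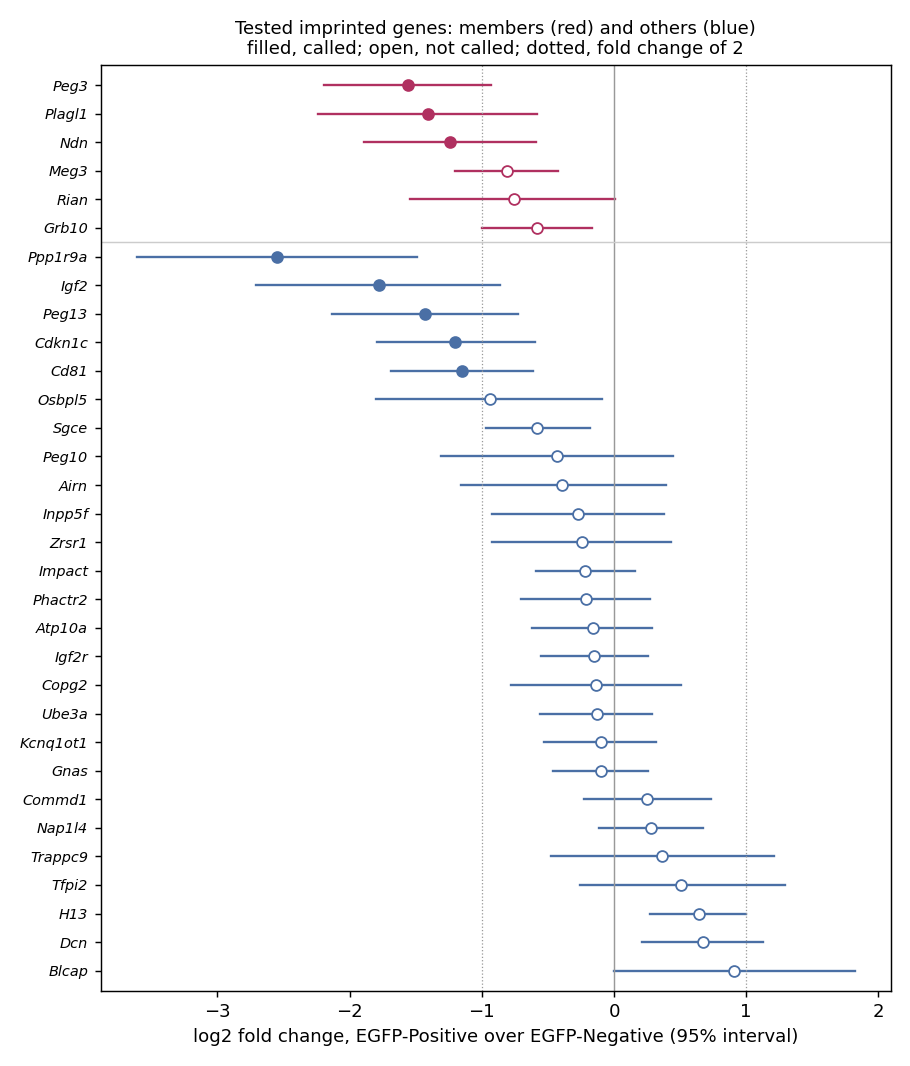
Log2 fold change (EGFP-Positive over EGFP-Negative) with its 95% interval for the 6 tested members (red) and the 26 other tested imprinted genes (blue). Filled points, 3 members and 5 other genes, were called, all of them to the left of 0, and the dotted lines mark a fold change of 2.

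Neighbours in a domain did not all pass the test. In the Ndn-Snrpn domain, *Ndn* was called while *Ube3a* and *Atp10a* had log2 fold changes of -0.13 (SE 0.204) and -0.16 (SE 0.217). In the Grb10 and Zrsr1 domains neither tested gene of the wider list was called, and the same held for *Igf2r* and *Airn*. *Kcnq1ot1*, the long noncoding RNA of the Kcnq1 domain, stood at -0.10 (SE 0.201) beside *Cdkn1c*. Differences between neighbours were not tested.

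Of 10 genes of insulin and IGF signalling, comprising ligands, receptors, substrates and mRNA-binding proteins, 9 had a symbol and 8 were tested. *Igf2* was the only one called lower, and none was called higher by edgeR or DESeq2, with 0 higher at an unadjusted p under 0.05. The median log2 fold change of the 8 was -0.14. *Igf1* had 368, 349 and 456 tags in EGFP-Negative and 310, 324 and 389 in EGFP-Positive libraries, a log2 fold change of -0.04 (SE 0.158). Of 10 genes that keep or read imprints (DNA methyltransferases and their partners), 7 were tested and 0 called by edgeR or DESeq2, with 1 higher and 1 lower at an unadjusted p under 0.05. These were *Dnmt3a*, a de novo DNA methyltransferase, at 0.79 (SE 0.229; edgeR adjusted p 0.0236) and *Smchd1* at -0.62 (SE 0.207; edgeR adjusted p 0.0485), both under the fold change of 2.

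Markers of some other cell types differed between the groups. All 7 smooth muscle markers were called lower in EGFP-Positive cells, with summed levels of 2569, 3214 and 4023 CPM in EGFP-Negative and 96.5, 155 and 335 CPM in EGFP-Positive libraries. *Myh11* was the most abundant of them in EGFP-Negative and *Tagln*, by the mean, in EGFP-Positive libraries. *Cnn1*, at 0 in EGFP-Positive replicate 1, passed the filter only through EGFP-Negative libraries, which set its direction though not its size. Of 6 tested pericyte markers, *Rgs5*, *Cspg4* and *Notch3* were called lower, and the list summed to 2632, 2242 and 2031 CPM against 1068, 894 and 794 CPM. The most abundant of them was *Rgs5* in EGFP-Negative and *Abcc9* in EGFP-Positive libraries. *Notch3*, at 0 in EGFP-Positive replicate 2, had its direction set by the filter as *Cnn1* did. *Kcnj8* at 0.71 (SE 0.227; edgeR adjusted p 0.0394) and *Abcc9* at 0.66 (SE 0.182; edgeR adjusted p 0.0167) were higher in EGFP-Positive cells, both under the fold change of 2, so the pericyte markers did not go 1 way.

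The 3 markers of interstitial cells of Cajal, *Kit*, *Ano1* and *Etv1*, were called lower too, and summed to 271, 168 and 258 CPM against 21.2, 20.3 and 50.5 CPM. *Ano1* was the most abundant of these in EGFP-Negative and *Etv1* in EGFP-Positive libraries, and *Kit* had 0 tags in EGFP-Positive replicates 1 and 2. The glia marker *Gfap* was called lower, with 22, 23 and 26 tags in EGFP-Negative and 1, 0 and 1 in EGFP-Positive libraries, and *Sox10* and *S100b* were at 0 in all EGFP-Positive libraries. *Kit* and *Gfap* too passed the filter only through EGFP-Negative libraries. Of the 9 fibroblast markers, *Col3a1* and *Pdpn* were called higher and 7 were not called. *Pdgfra* had 742, 661 and 663 tags against 768, 688 and 705, and *Dcn* was the most abundant, the list summing to 22114, 21829 and 24256 CPM against 42399, 34126 and 30253 CPM.

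The 5 epithelial markers counted summed to at most 14.0 CPM, in EGFP-Negative replicate 3, where *Krt19* was the most abundant with 8 tags. *Pecam1* had 1 tag in all 6 libraries together. *Tek*, the most abundant of the 4 endothelial markers counted and the 1 tested, was called lower, and the list summed to 36.3, 24.5 and 37.0 CPM against 18.0, 7.11 and 6.68 CPM. The 6 haematopoietic markers summed to at most 26.4 CPM, with *Laptm5* the most abundant. The 3 mesothelial markers were at 0 in every EGFP-Positive library and reached 10.7 CPM in EGFP-Negative replicate 3, mostly *Upk3b*. The 3 erythroid markers summed to 57.3, 0 and 190 CPM in EGFP-Negative and 9.54, 0 and 11.4 CPM in EGFP-Positive libraries, with *Hbb-bs* the most abundant. EGFP-Negative replicate 3 was the highest library for *H19*, *Rian*, *Ndn*, *Cd81*, *Ppp1r9a* and *Peg13*, and for the smooth muscle, mesothelial, erythroid, epithelial and endothelial lists. EGFP-Negative replicate 1 was the highest for *Peg3*, *Plagl1*, *Grb10* and *Igf2*, and for the pericyte and interstitial cell of Cajal lists. EGFP-Negative replicate 2 was the highest for *Meg3*, *Mest* and *Cdkn1c*, and of these lists only for the haematopoietic one. The part of these other cell types in the levels of the imprinted genes was not tested.

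The tested genes whose profile over the 6 libraries was most like that of *H19* were *Sema3b*, *Pi16* and *Cryab*, with root mean square differences of 0.315, 0.348 and 0.401 in log2(CPM + 1) centred on each gene's mean. These genes were picked for their likeness, and *Pi16* had 41, 74 and 135 tags in EGFP-Negative and 7, 6 and 42 in EGFP-Positive libraries. For *Meg3* they were *Mgrn1*, *Dnajb4* and *Arih1*, at 0.0521, 0.053 and 0.0979, and *Dnajb4* had 265, 325 and 291 tags against 136, 175 and 133.

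The members lie on 5 chromosomes in GENCODE M21 (GRCm38). *Peg3* spans chr7:6703892-6730431 on the minus strand, *Ndn* chr7:62346569-62350262 on the plus strand, *H19* chr7:142575529-142578143 on the minus strand, *Plagl1* chr10:13060504-13131694 and *Meg3* chr12:109541001-109571726, both on the plus strand. Hairpins of miRNAs overlap *H19* (*Mir675*), *Meg3* (*Mir770* and *Mir1906-1*), *Mest* (*Mir335*) and *Rian* (*Mir341*, *Mir1188* and *Mir370*), and these small RNAs were not measured.

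RefSeq promoter windows of 300 bases (GRCm38.p6) matched 9 of the 10 members, and those of the 3 called members and *Meg3* are printed because these genes were lower together at the adjusted p. Capitals mark letters searched on both strands: GGGGCCCC, the core bound by PLAGL1, GCCAT, the core of YY1, and TATAAA. Of 32851 such windows, 1.08% hold the first, 40.5% the second and 13.6% the third. The *Peg3* window holds GGGGCCCC, those of *Plagl1* and *Ndn* hold GCCAT, and that of *Meg3* holds GCCAT and TATAAA. These are matches of letters only. The windows hold 13 CG pairs in *Peg3*, 26 in *Plagl1*, 11 in *Ndn* and 13 in *Meg3*, beside a median of 7. They lie at chr7:6730370-6730669 (minus strand), chr10:13090582-13090881, chr7:62348027-62348326 and chr12:109540746-109541045 (plus strand), the last being the first of 2 windows given for *Meg3*. The second *Meg3* window, chr12:109545148-109545447 (plus strand), holds 1 CG pair and no match to any of the letters searched.
Peg3: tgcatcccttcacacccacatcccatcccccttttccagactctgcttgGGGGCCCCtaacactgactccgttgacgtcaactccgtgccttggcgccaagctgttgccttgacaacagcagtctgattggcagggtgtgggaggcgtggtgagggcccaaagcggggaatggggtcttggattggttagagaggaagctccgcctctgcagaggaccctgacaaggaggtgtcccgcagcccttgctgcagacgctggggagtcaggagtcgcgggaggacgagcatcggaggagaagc
Plagl1: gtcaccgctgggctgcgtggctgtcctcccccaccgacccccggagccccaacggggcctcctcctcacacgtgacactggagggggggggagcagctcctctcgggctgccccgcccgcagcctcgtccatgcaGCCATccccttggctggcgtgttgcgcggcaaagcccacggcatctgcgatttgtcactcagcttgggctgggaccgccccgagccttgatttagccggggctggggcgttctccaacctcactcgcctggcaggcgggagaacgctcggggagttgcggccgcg
Ndn: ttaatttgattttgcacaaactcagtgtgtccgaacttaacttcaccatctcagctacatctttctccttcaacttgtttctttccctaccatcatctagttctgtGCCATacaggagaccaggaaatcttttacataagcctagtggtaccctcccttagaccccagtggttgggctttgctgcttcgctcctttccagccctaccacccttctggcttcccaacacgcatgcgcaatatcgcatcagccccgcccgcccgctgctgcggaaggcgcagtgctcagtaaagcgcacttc
Meg3: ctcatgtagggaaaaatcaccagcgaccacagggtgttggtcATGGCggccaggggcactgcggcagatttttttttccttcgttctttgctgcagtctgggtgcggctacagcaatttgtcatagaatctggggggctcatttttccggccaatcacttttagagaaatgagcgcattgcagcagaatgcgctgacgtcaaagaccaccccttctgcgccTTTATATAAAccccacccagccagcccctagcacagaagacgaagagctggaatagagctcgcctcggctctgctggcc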

How the data were processed

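RNA of EGFP-Positive and EGFP-Negative cells (3 libraries each) was analysed from the raw tag counts per gene symbol that the authors deposited. According to the methods and the submitters' processing notes, the authors used Cutadapt 1.18 for trimming and Bowtie2 2.2.5 for mapping to RefSeq mm10 RNA, in a single orientation, and counted tags per gene. How tags matching several genes or molecular identifiers were handled is not given in the sources used here. Totals were 1022851 to 1169817 tags.

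Members and gene lists were chosen with earlier results of these data known. The 9334 genes with 10 or more tags in 3 or more libraries were fitted together in R 4.3.3 with edgeR 4.0.16 (TMM, glmQLFit and glmQLFTest, Benjamini-Hochberg over all tested genes). The methods print the filter as removing genes with 10 or more tags, which was read here as keeping them, and name the TCC package, whose scheme was run as iterative TMM. Calls needed both an adjusted p below 0.05 and a difference of more than 2-fold. Library sizes were the tags of the tested genes. This was set after a first fit with the tags of all symbols, which called 588 genes lower and 322 higher, against 595 and 321. The fit was tested on simulated data.

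Replicate numbers come from the labels. The methods name 3 mice. Deviations from the group means of same-numbered libraries correlated at 0.23, 0.2 and 0.27 across 5064 genes, which are not independent. For differently numbered libraries the correlations were -0.21 to -0.01. The fit was therefore also run with replicate number as a blocking factor. Ratios of low tag sums have exact conditional binomial intervals. The pseudocount of 1 CPM in the profile comparison was set after the files were seen, and that in the log2 tag ratios was 0.5. Named genes were all members, called genes of the other lists, up to 8 each way for imprinted genes, the 3 nearest profiles of *H19* and *Meg3*, *Il11* and cell type markers, of which 1 is not reported here. *H13*, *Dcn*, *Sgce*, *Dnmt3a*, *Smchd1*, *Igf1*, *Trappc9*, *Ube3a*, *Atp10a*, *Igf2r*, *Airn*, *Kcnq1ot1*, *Tnfrsf23* and *Blcap* were named after their values were seen. Alternatives were RLE factors, library size only, iterative TMM, DESeq2 1.42.0, looser filters, the adjusted p alone, the replicate block and each library left out.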

Additional observations from a re-analysis of the deposited data

How the results depend on the processing

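The log2 fold changes of the 11 tested genes named among members and called imprinted genes kept their sign in all 228 fits run, and 214 of these kept their side of the threshold. The other 14 were leave-one-out fits in which *Plagl1*, *Ndn*, *Cd81* or *Cdkn1c* was no longer called. With the replicate block, 648 genes were called lower and 337 higher, 3 members and 5 other imprinted genes were lower and 0 of either higher, so the block changed no call among these genes. Members called lower numbered 2 to 4 over all settings, the fourth being *Meg3* by the adjusted p alone or *H19* under looser filters. At 10 tags in 1 library *H19* passes only through EGFP-Negative replicate 3, so the filter favoured that direction.

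Without 1 library, 341 to 579 genes were called lower and 251 to 306 higher. The lowest counts of genes called lower, 341 and 355, came without EGFP-Negative replicate 1 or 2. The filter then needed 3 of 5 libraries and tested fewer genes. On the genes of the filter with all 6 libraries, added after seeing the data, 483 to 580 were called lower. Other imprinted genes called lower numbered 3 to 5 without 1 library (3 without EGFP-Negative replicate 2 or 3), and 4 to 5 on the 6-library filter. Those called higher numbered 0 to 1, the 1 being *Blcap* without EGFP-Positive replicate 3, with the same range of 0 to 1 on the 6-library filter. By the adjusted p alone 638 genes were higher, 2 of them other imprinted genes, and with at least 1 tag in any library 1 was, *Tnfrsf23*. Other imprinted genes that were lower numbered 6 and 7 under these 2 settings. Causes of these changes were not tested. *H19*, *Mest*, *Dlk1* and *Zim1* are limited by depth, with at most 19 tags in a library.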
